A study of Mus musculus with 4 samples.

Results

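The genes described here are 35 markers of myeloid cells, taken by symbol from a fixed list out of the 23418 genes in the count table: 6 receptors of monocytes and macrophages, 8 secreted and lysosomal proteins, 4 transcription factors and adaptors, 4 neutrophil genes, 2 integrin chains, 8 dendritic cell genes and 3 mast cell genes. All 35 had a row in the table. They were measured in bulk RNA sequencing of B cells sorted from cervical lymph nodes of BL/10 mice, the control strain, and of NOD.B10 mice, each strain giving 2 libraries. NOD.B10 mice have the NOD genetic background with the major histocompatibility region of the B10 strain and are a model of Sjögren's disease, an autoimmune attack on salivary and lacrimal glands; the series concerns IL-36 cytokines in that disease. Age, sex, treatment, the sort gate and pooling of animals are not stated in the labels, and no label ties the replicates to separate mice. P-values therefore reflect only how far these samples differ from each other, and that spread may be technical.

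Myeloid cells are not the cells that were sorted. Macrophages of the node take up dead cells and particles, dendritic cells carry and present antigen to T cells, neutrophils enter from the blood, and mast cells lie in the capsule and along vessels. In a B cell sort, such a list mixes trace RNA of other cells with genes that B cells also use. In bulk RNA, fewer cells of a type and less RNA per cell cannot be told apart.

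B cell identity was clear in every library. The 12 B cell markers (Cd79a, Ms4a1, Pax5 and others) summed to 10719 and 10902 CPM (counts per 1000000 reads, over TMM-scaled library sizes) in BL/10 and to 12059 and 12517 CPM in NOD.B10, and 11 of them were not called while Fcer2a rose. With BL/10 replicate 2 left out, Cd79a, Pax5, Cr2 and Bank1 were called higher too, and Cr2 was with any 1 library left out. Total counts ranged from 19328803 to 29372751 reads, so that 1 read is worth between 0.0338 and 0.0518 CPM. Markers of T cells, natural killer cells and erythroid cells were lower in NOD.B10 alongside part of the myeloid ones. Of 5 platelet markers 2 were tested and 0 called, with sums of 1.89 and 1.74 CPM in BL/10 and 2.59 and 1.33 CPM in NOD.B10. Pf4 and Ppbp, not tested, had 0 reads in NOD.B10. Stromal and endothelial genes are given below with Vcam1. All 17 T cell markers were called lower, with summed levels of 737 to 850 CPM in BL/10 and 216 to 229 CPM in NOD.B10. None was at 0 in both NOD.B10 libraries, and Themis had 4 and 0 reads there. Most of the NOD.B10 sum came from Cd2 (166 and 153 CPM) and Lck (38.3 and 45.9 CPM). These fell by only 0.37 and 0.73 on the log2 scale. Cd3e, Cd3d, Cd3g, Cd8a, Cd8b1, Cd28, Themis and Il7r passed the filter on low counts only through BL/10. Cd3d lost its call when BL/10 replicate 1 was left out, and Cd2 when either NOD.B10 replicate was. Of 10 natural killer markers 7 were tested and 6 were lower, with 21 to 35.1 CPM against 7.21 to 8.92 CPM. Klrk1, Klrd1, Gzma and Gzmb had 0 reads in NOD.B10. Nearly all of the NOD.B10 sum was Tbx21 (6.06 and 3.29 CPM, not called) and Prf1 (2.54 and 3.25 CPM). Klrk1, Klrd1, Nkg7, Ncr1 and Eomes passed that filter only through BL/10, so the count supports nothing about the list. Prf1 lost its call when BL/10 replicate 2 was left out, and Ncr1 when any replicate but NOD.B10 replicate 2 was. All 3 tested erythroid markers were lower, at 187 to 297 CPM against 4.27 to 9.74 CPM, with Slc4a1 at 0 reads in NOD.B10. Nearly all of that sum was Alas2 (adjusted p = 0.048), whose call was lost when either BL/10 replicate was left out. The part of this fall of T cell, natural killer and erythroid markers in the results below was not tested.

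The 3 mast cell genes had reads in both BL/10 libraries and in no NOD.B10 library, and the region before each start site is printed so that these 3 genes can be compared in sequence. Each line holds the 250 bases upstream of the RefSeq start (GRCm38.p6, the assembly of mm10), 5′ to 3′ on the strand of the gene, with matches to the motif of GATA factors in capitals (AGATAA or TGATAA on either strand). Kit is read from chr5:75574737-75574986 on the plus strand, Mcpt4 from chr14:56062311-56062560 on the minus strand and Cpa3 from chr3:20242182-20242431 on the minus strand.

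Kit: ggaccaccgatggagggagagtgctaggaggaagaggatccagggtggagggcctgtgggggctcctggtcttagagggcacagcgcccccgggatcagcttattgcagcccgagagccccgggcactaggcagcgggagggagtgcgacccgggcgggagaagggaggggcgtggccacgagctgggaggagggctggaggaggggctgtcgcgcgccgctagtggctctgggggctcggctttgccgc

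Mcpt4: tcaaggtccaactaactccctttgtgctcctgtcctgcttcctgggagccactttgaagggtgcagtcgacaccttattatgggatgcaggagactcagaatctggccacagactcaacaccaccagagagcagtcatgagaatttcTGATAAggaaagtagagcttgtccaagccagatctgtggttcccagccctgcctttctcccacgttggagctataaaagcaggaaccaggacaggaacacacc

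Cpa3: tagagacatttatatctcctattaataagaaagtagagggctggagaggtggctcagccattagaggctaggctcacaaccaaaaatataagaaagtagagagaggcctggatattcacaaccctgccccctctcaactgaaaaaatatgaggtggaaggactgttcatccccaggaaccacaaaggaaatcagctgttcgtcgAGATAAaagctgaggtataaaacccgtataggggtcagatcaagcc

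The Cpa3 match began 46 bases and the Mcpt4 match 103 bases before the start, and the Kit window held none. The 28 members with an entry in the promoter table had 31 windows. Of these windows 8 had a GATA match, each of another member, Itgax, Ccr2 and S100a9 among them. Of all 32851 windows of this length 16.6% had a match. The PU.1 motif GAGGAAGT, searched on both strands, was found in 2 of the 31 windows (C1qc and S100a8) against 2.44% of all windows. The C/EBP motif TTGCNNAA was found in 4 of the 31 (Cd68, Lyz1, S100a9 and Siglech) against 9.56%. None of these motifs contains another, and a match is a description of the letters only.

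Lyz1 and Lyz2, the lysozyme genes, are near-identical neighbours on chromosome 10, and their reads can be exchanged by an aligner. The first 240 coding bases are shown (GENCODE vM21 transcripts, minus strand, coding regions within chr10:117288586-117292838 and chr10:117278124-117282242), with the 17 bases that differ in this stretch in capitals.

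Lyz1: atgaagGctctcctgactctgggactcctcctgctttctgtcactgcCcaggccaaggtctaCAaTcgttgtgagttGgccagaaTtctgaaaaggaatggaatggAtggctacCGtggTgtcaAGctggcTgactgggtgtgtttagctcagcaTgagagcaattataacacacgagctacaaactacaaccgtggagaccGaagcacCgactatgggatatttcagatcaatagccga

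Lyz2: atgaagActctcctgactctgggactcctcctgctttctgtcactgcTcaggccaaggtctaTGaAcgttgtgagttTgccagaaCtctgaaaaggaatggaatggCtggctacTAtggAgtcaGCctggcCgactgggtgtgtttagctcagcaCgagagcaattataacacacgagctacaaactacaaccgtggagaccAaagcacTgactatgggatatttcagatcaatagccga

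Over the 444 coding bases 22 differed, an identity of 95%, and the longest identical run was 118 bases. How reads with several alignments were counted was not given in the sources used here, so both genes carry an uncertain count.

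Of the 35 members, 30 had enough reads to be tested, 13 were called lower in NOD.B10, 2 were called higher and 15 were not called (edgeR quasi-likelihood test over 13075 genes, Benjamini-Hochberg adjusted p under 0.05). The called share was 43.3% lower and 6.67% higher among tested members, against 8.63% lower and 6.55% higher over all genes tested. The median log2 fold change (NOD.B10 over BL/10) was −1.61 for tested members and 0.00 for all tested genes. These shares support nothing about the members as a whole, since 16 of the 30 passed the filter on low counts only through BL/10, where they were high, and 10 of the 13 lower calls came from these. Among the 14 that passed in both NOD.B10 libraries, Apoe, Csf1r and Tyrobp were lower and Cst3 and Cebpb higher. With BL/10 replicate 2 left out 9 members were called lower and 3 higher, and when NOD.B10 replicate 1 was left out 16 were lower and 1 higher. Batf3, Cd14, Clec9a, Mertk and S100a9 were not tested.

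**Figure D1:**
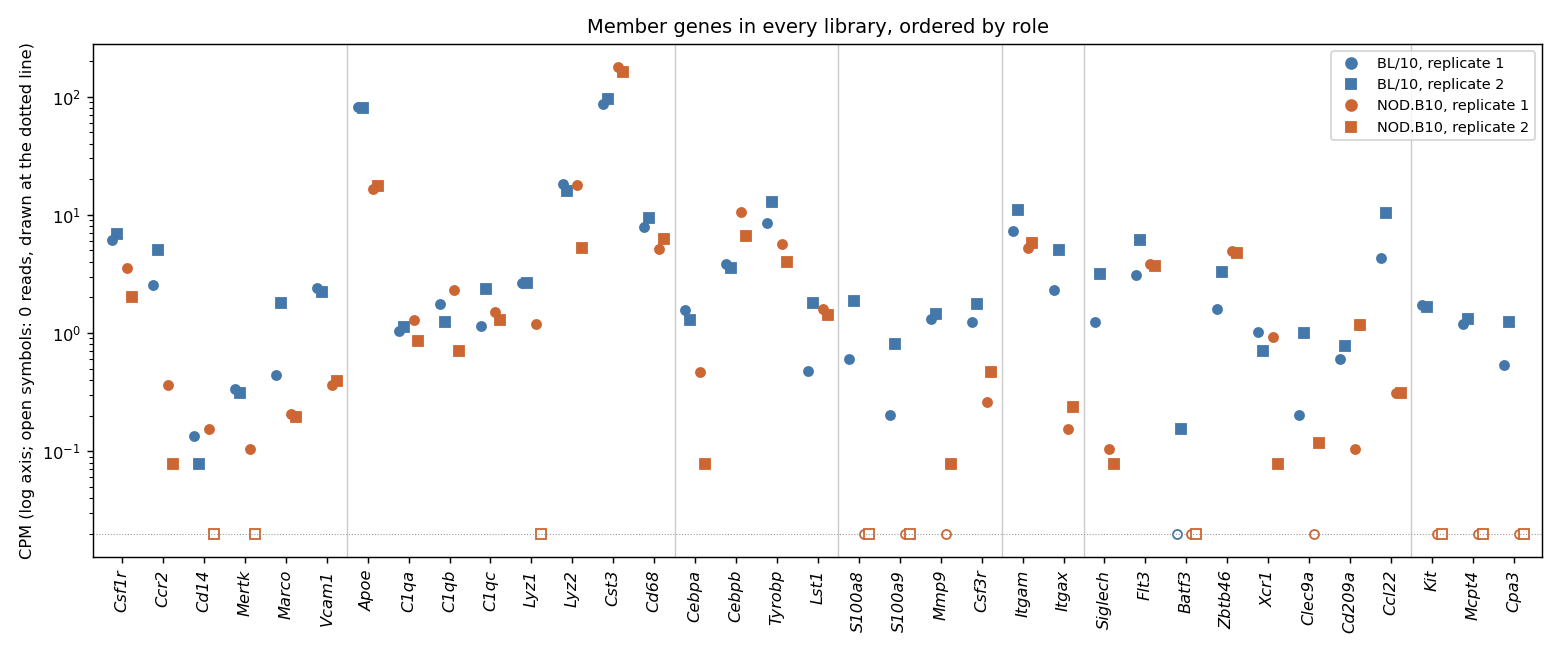
Level of each of the 35 members in CPM on a log axis, 1 symbol per library (BL/10 blue, NOD.B10 orange, circles replicate 1, squares replicate 2), ordered by role from macrophage receptors to mast cells. Open symbols on the dotted line mark 0 reads. Kit, Mcpt4, Cpa3, S100a8 and S100a9 have 0 reads in both NOD.B10 libraries, and Cst3 lies above BL/10.

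Per base of gene length, Cst3 was the highest member in both strains and Apoe stood well above the remaining members in BL/10. Cst3 reached 123 CPM per kilobase in BL/10 and 229 in NOD.B10, and Apoe 64.7 and 13.7. Tyrobp, Lyz2 and Cd68 followed in BL/10 with 18.8, 16.1 and 8.58 CPM per kilobase, and 30 members were below 5. In NOD.B10, Apoe lay near Lyz2 (11) and Tyrobp (8.52), and Lyz2 was above it in the first library. The other 33 members summed to 87.3 and 120 CPM in BL/10 and to 68.5 and 45.9 CPM in NOD.B10, so that Apoe and Cst3 made up most of the summed CPM of the members.

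Of the 6 receptors of monocytes and macrophages, Csf1r, Ccr2 and Vcam1 were called lower, Marco was not called, and Cd14 and Mertk were too low to test. Together they summed to 11.9 and 16.2 CPM in BL/10 and to 4.72 and 2.66 CPM in NOD.B10, and the strains did not overlap.

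Ccr2, the receptor that brings monocytes out of the blood towards CCL2, had 75 and 129 reads in BL/10 and 7 and 2 in NOD.B10 (2.53 and 5.0 CPM against 0.363 and 0.0783 CPM). Both NOD.B10 libraries lay below both BL/10 libraries, with adjusted p = 0.00118 and a log2 fold change of −4.15 (SE 0.691). The ratio of pooled reads was 18.3-fold with a 95% counting interval of 9.47 to 40.7, which covers counting error only. The log2 fold change was −5.51 with NOD.B10 replicate 1 left out and −3.35 with replicate 2 left out.

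Csf1r, the receptor for the macrophage survival factors CSF-1 and IL-34, had 6.08 and 6.82 CPM in BL/10 and 3.52 and 2.00 CPM in NOD.B10. The groups were apart but the fold was small, −1.24 on the log2 scale with SE 0.349 (adjusted p = 0.0289). This call was lost when BL/10 replicate 1 (adjusted p = 0.0512), BL/10 replicate 2 (0.0817) or NOD.B10 replicate 2 (0.127) was left out. Csf1r shares 873 exon bases on the opposite strand with Hmgxb3, which was not called (log2 fold change −0.06).

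Vcam1, an adhesion molecule of macrophages, endothelium and follicular stroma, stood at 2.40 and 2.21 CPM in BL/10 and at 0.363 and 0.392 CPM in NOD.B10. Replicates were close, and the log2 fold change was −2.59 (SE 0.573, adjusted p = 0.00746), a call lost when BL/10 replicate 1 was left out (adjusted p = 0.0645). Of 15 other stromal and endothelial genes 5 were tested, 0 were lower and 1, Pdgfrb, was higher, a call lost when replicate 1 of either strain was left out. These genes summed to 360 to 370 CPM in BL/10 and 418 to 429 CPM in NOD.B10, nearly all from Pecam1, which lymphocytes share. Ccl19 and Ccl21a of node stroma had 0 reads in every library, and Pdgfra, Col1a2 and Pdpn in NOD.B10.

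Marco, a scavenger receptor of node macrophages, had 13 and 46 reads in BL/10 and 4 and 5 in NOD.B10 (adjusted p = 0.081, log2 fold change −2.43 with SE 0.876). It was called when BL/10 replicate 1 was left out (adjusted p = 0.0479). Mertk, which mediates uptake of dying cells, had 10 and 8 reads in BL/10 and 2 and 0 in NOD.B10, a ratio of 7.28 (95% counting interval 1.74 to 64.7). Cd14, the co-receptor for lipopolysaccharide, had 4 and 2 against 3 and 0 reads, and no difference was detectable at this depth.

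Apoe stood out among the secreted products of macrophages. It encodes apolipoprotein E, which carries cholesterol out of lipid-laden cells, and lies on chromosome 7 (19696244 to 19701310, protein-coding). Apoe had 2399 and 2085 reads in BL/10 and 322 and 449 in NOD.B10, or 81.0 and 80.8 CPM against 16.7 and 17.6 CPM. Replicates lay close together and the strains were 4.72-fold apart (adjusted p = 8.08e-08, log2 fold change −2.24 with SE 0.131). Apoe had the smallest adjusted p of the members, rank 47 among all genes tested by p. Its log2 fold change stayed between −2.28 and −2.21 in all 8 alternative fits.

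Genes beside Apoe and genes of sterol transport were mostly not called or too low to test. Tomm40, the next gene along (19701313 to 19715442), which encodes a mitochondrial import pore, stood at 39.0 ± 6.83 CPM (SD, n = 2) in BL/10 and 42.7 ± 10.8 CPM in NOD.B10 and was not called (adjusted p = 0.728, log2 fold change 0.13 with SE 0.188). Apoc1 and Apoc4 had 0 reads in all libraries, Apoc2 had 2, 4, 0 and 0, and Cblc had 4, 6, 1 and 3, too few to test. Bcam, an adhesion molecule gene further along, fell from 27 and 34 reads to 0 and 2 (adjusted p = 0.00876), a call lost when BL/10 replicate 2 was left out. Of 25 other genes of sterol and lipoprotein transport 20 were tested, 2 fell (Npc2 and Lrp1) and 2 rose (Pltp and Sorl1). These counts were near the shares over all genes tested, 8.63% lower and 6.55% higher. Sorl1 lost its call when NOD.B10 replicate 1 was left out. Pltp, a phospholipid transfer protein, rose from 24.0 ± 0.701 to 74.1 ± 2.90 CPM (log2 fold change 1.63, adjusted p = 1.54e-06), while Npc2, a lysosomal cholesterol carrier, fell by 0.57 on the log2 scale. The cholesterol exporters Abca1 and Abcg1 had log2 fold changes of −0.19 and −0.33 and were not called. Their BL/10 libraries lay far apart (1326 and 708 CPM for Abca1), and Abca1 was called higher when BL/10 replicate 1 was left out and lower when BL/10 replicate 2 was left out. Abcg1 was called lower when BL/10 replicate 2 or NOD.B10 replicate 1 was left out.

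The C1q chains were not called. C1qa, C1qb and C1qc, which lie side by side on chromosome 4 (136880126 to 136898844) and form the recognition molecule of the classical complement pathway, are marker genes of tissue macrophages. They summed to 117 and 122 reads in BL/10 and 99 and 73 reads in NOD.B10, or 3.95 and 4.73 CPM against 5.13 and 2.86 CPM, and the strains overlapped for each chain. Log2 fold changes were −0.02 for C1qa (SE 0.585), −0.01 for C1qb (SE 0.604) and −0.33 for C1qc (SE 0.532), and none was called. Apoe reads per C1q read were 20.5 and 17.1 in BL/10 and 3.25 and 6.15 in NOD.B10. Of 15 other complement genes, 7 were tested and Cd93, a membrane receptor, was the 1 called, where 8.63% of all genes tested were called lower. Cd93 fell from 34.0 ± 3.76 to 5.74 ± 1.92 CPM (log2 fold change −2.58, adjusted p = 9.69e-06). In BL/10 it stood far above the summed C1q chains, and which cells carried it was not tested.

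The lysozyme genes differed widely between the NOD.B10 libraries. Lyz2, the macrophage lysozyme printed above, had 18.1 and 15.9 CPM in BL/10 and 18.04 and 5.29 CPM in NOD.B10. The first NOD.B10 library lay at the BL/10 level and the second below it (adjusted p = 0.714, log2 fold change −0.56 with SE 0.691). Lyz1, the lysozyme of Paneth cells, had 79 and 68 reads in BL/10 and 23 and 0 in NOD.B10 (log2 fold change −2.23, adjusted p = 0.352). With NOD.B10 replicate 1 left out both were called lower (adjusted p = 3.69e-07 for Lyz2 and 2.34e-09 for Lyz1). With no filter and all libraries in, Lyz1 was called lower (adjusted p = 0.00404) and Lyz2 was not. Lyz2 reads per Lyz1 read were 6.77 and 6.03 in BL/10 and 15.1 in the first NOD.B10 library.

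Cst3 moved the other way. It encodes cystatin C, a secreted inhibitor of lysosomal cysteine proteases made by many cell types, and had 87.2 and 96.0 CPM in BL/10 and 177 and 163 CPM in NOD.B10. Both NOD.B10 libraries were higher, 1.855-fold on average (adjusted p = 1.31e-04, log2 fold change 0.89 with SE 0.115), and it was called higher in all 8 alternative fits. Apoe reads per Cst3 read went from 0.929 and 0.842 in BL/10 to 0.0942 and 0.108 in NOD.B10. Cd68, a lysosomal glycoprotein of macrophages, had 7.87 and 9.42 CPM in BL/10 and 5.18 and 6.23 CPM in NOD.B10, and this 1.52-fold difference was not called (adjusted p = 0.16, log2 fold change −0.60 with SE 0.261).

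**Figure D2:**
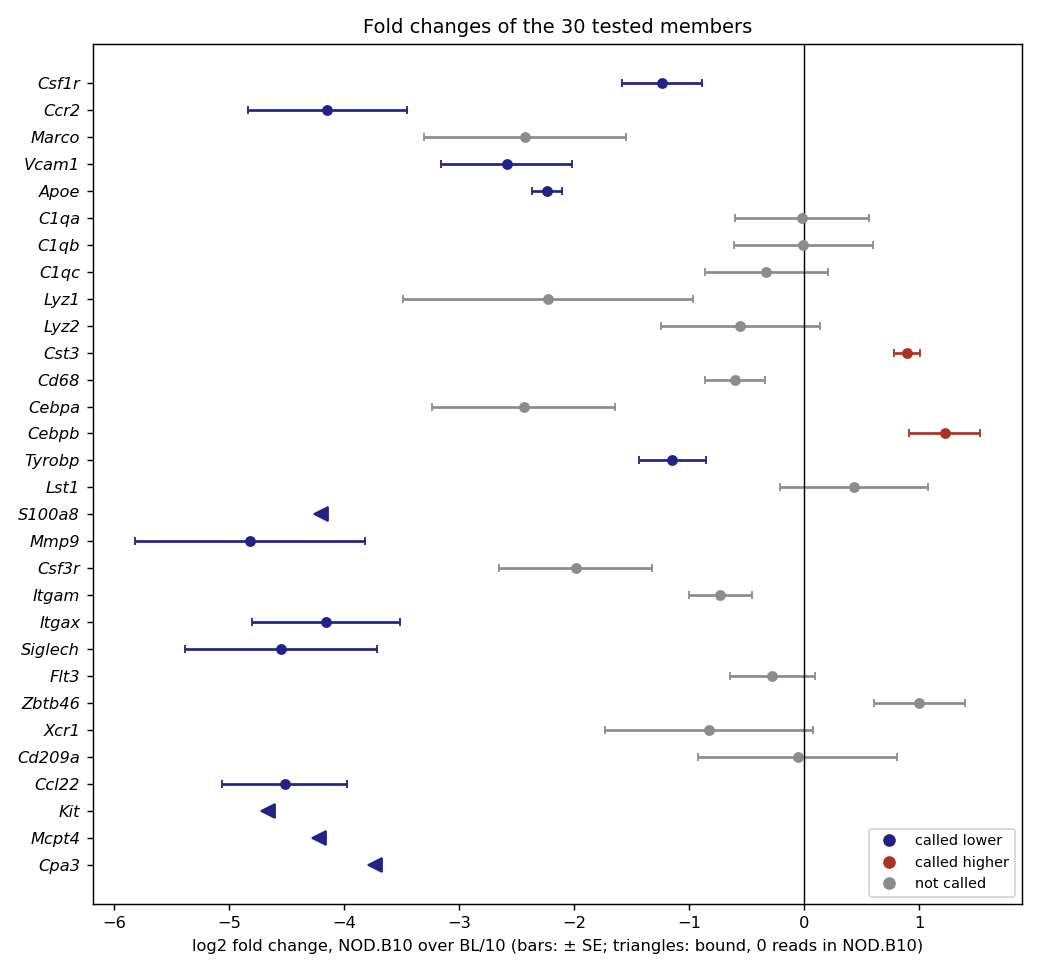
Log2 fold change of NOD.B10 over BL/10 for the 30 tested members, with bars of ± SE (blue called lower, red called higher, grey not called). Triangles mark genes with 0 reads in NOD.B10 at their bound, against 3 reads over the group. Apoe and Cst3 have the shortest bars, and the 3 C1q chains lie at or near 0.

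Transcription factors and adaptors of the myeloid lineage split in direction. Cebpb, a factor induced by inflammation in macrophages and also present in lymphocytes, rose from 3.82 and 3.53 CPM to 10.6 and 6.58 CPM (adjusted p = 0.0164, log2 fold change 1.22 with SE 0.308). The call was lost when NOD.B10 replicate 1 was left out, the higher of the pair (adjusted p = 0.154). Cebpb shares 312 exon bases on the opposite strand with Tmem189, which was not called (log2 fold change 0.15). Cebpa, the founding factor of the granulocyte and monocyte lineage, had 46 and 33 reads in BL/10 and 9 and 2 in NOD.B10 and just missed the threshold (adjusted p = 0.0542, log2 fold change −2.44 with SE 0.796), being called when NOD.B10 replicate 1 was left out (adjusted p = 0.00317).

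Tyrobp, the adaptor DAP12 that passes on signals of TREM receptors and killer cell receptors, had 8.51 and 12.8 CPM in BL/10 and 5.65 and 3.99 CPM in NOD.B10. The groups did not overlap (adjusted p = 0.0163, log2 fold change −1.15 with SE 0.29), and the call was lost when BL/10 replicate 2 was left out (adjusted p = 0.129). Natural killer cells also use Tyrobp, and their part in the Tyrobp result was not tested. Lst1, a small membrane protein of myeloid cells, had 14 and 46 reads in BL/10 and 31 and 36 in NOD.B10, and the strains overlapped (adjusted p = 0.743).

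Of the neutrophil genes, S100a8 and Mmp9 fell, Csf3r was not called and S100a9 was too low to test. The 4 members summed to 100 and 151 reads in BL/10 and to 5 and 14 in NOD.B10, or 3.38 and 5.85 CPM against 0.259 and 0.548 CPM. S100a8 and S100a9, which lie together on chromosome 3 (90669071 to 90695721) and encode the chains of calprotectin, an abundant protein of the neutrophil cytosol, had 18 and 48 and 6 and 21 reads in BL/10 and 0 in NOD.B10. At the BL/10 level, 55.3 and 22.8 reads would have been counted in NOD.B10. S100a8 was at least 18.4-fold lower (adjusted p = 0.00485), and S100a9, with a bound of 7.60-fold, had too few reads to be tested with all libraries in. The S100a9 bound ranged from 3.03 to 12.2 with 1 library left out, and it was called lower when BL/10 replicate 1 was left out (adjusted p = 0.0325) or no filter was used (adjusted p = 0.0239). The S100a8 bound ranged from 7.94 to 27.8 with 1 library left out, and its call was lost when BL/10 replicate 2 was left out (adjusted p = 0.0562).

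Mmp9, a matrix protease stored in neutrophil granules, had 39 and 37 reads in BL/10 and 0 and 2 in NOD.B10. The fall was 30.8-fold with a 95% counting interval of 8.22 to 258.5 (adjusted p = 0.00431), and the log2 fold change was −4.07 with NOD.B10 replicate 1 left out and −8.10 with replicate 2 left out, against −4.82 with both. Csf3r, the receptor for the granulocyte growth factor G-CSF, had 37 and 45 against 5 and 12 reads and was not called (adjusted p = 0.0606, log2 fold change −1.99 with SE 0.666), but was when NOD.B10 replicate 2 was left out (adjusted p = 0.0461). Of 20 other neutrophil genes 18 had a row and 6 were tested, with a median log2 fold change of −1.07. Trem1, Cxcr2, Il1r2 and Ngp passed the filter only through BL/10, so that median supports nothing about the list. Trem1 fell, from 91 and 60 reads to 0 and 1 (log2 fold change −6.64, adjusted p = 1.83e-04). Granule genes were low and mixed. Ngp had 16 and 38 reads in BL/10 and 37 and 6 in NOD.B10, and Camp 7 and 6 against 10 and 10, neither of them called. Ltf had 4 and 6 against 0 and 0, too few to test, and Mmp8 and Prtn3 had 0 reads throughout. Retnlg, Ltf, Cd177 and Clec4d had reads in BL/10 and none in NOD.B10.

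Itgam and Itgax are adjacent integrin genes on chromosome 7 (128062640 to 128150657), of which Itgax fell and Itgam was not called. Itgam encodes CD11b, of macrophages, neutrophils and natural killer cells, and had 7.30 and 11.1 CPM in BL/10 and 5.29 and 5.76 CPM in NOD.B10 (adjusted p = 0.102, log2 fold change −0.73 with SE 0.278), with a call when BL/10 replicate 1 was left out (adjusted p = 0.0381). Itgax encodes CD11c, of dendritic cells and of a subset of B cells, and had 68 and 129 reads in BL/10 and 3 and 6 in NOD.B10, at adjusted p = 5.48e-04. Its log2 fold change was −4.16 (SE 0.64), and −3.51 when BL/10 replicate 2 was left out. Itgax reads per Itgam read were 0.315 and 0.451 in BL/10 and 0.0294 and 0.0408 in NOD.B10. The ratios did not overlap, and an exact permutation test of 2 against 2 libraries cannot go below p = 0.333. Itgb2, their shared beta chain, was level between strains (log2 fold change 0.01). Itgam also shares 3450 exon bases with the gene model Gm49368 on its own strand.

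Dendritic cell genes did not move together. Of 8 members, Siglech and Ccl22 fell, Flt3, Zbtb46, Xcr1 and Cd209a were not called, and Batf3 and Clec9a were too low to test. Siglech, a lectin of plasmacytoid dendritic cells, the main interferon producers, had 37 and 82 reads in BL/10 and 2 and 2 in NOD.B10. This is 24.1-fold with a 95% counting interval of 9.16 to 89.8 (log2 fold change −4.55, adjusted p = 0.002), and the log2 fold change was −3.74 when BL/10 replicate 2 was left out. Of 12 other genes of plasmacytoid cells 10 were tested. Klk1, Ly6d and Bst2 were called lower (Bst2 not when BL/10 replicate 2 was left out), as were 8.63% of all genes tested. The 7 genes of this list not called included Tcf4 and Spib, transcription factors that B cells share with plasmacytoid cells. Ly6d, at 272 and 453 CPM in BL/10, stood far above Siglech, at 1.25 and 3.18 CPM. Which cells carried Klk1, Ly6d and Bst2 was not tested.

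Ccl22, a chemokine of mature dendritic cells and activated B cells that draws CCR4-bearing T cells, had 4.29 and 10.3 CPM in BL/10 and 0.311 and 0.313 CPM in NOD.B10. BL/10 libraries differed from each other by over 2-fold, and both lay far above NOD.B10 (adjusted p = 1.09e-04, log2 fold change −4.52 with SE 0.543), with −3.77 when BL/10 replicate 2 was left out. Ccr4, its receptor, fell too, from 61 and 89 reads to 14 and 3 (log2 fold change −2.77, adjusted p = 0.0205), alongside the T cell markers, a call lost when BL/10 replicate 2 was left out. Ccl17, the companion ligand of Ccr4, had 11 and 11 reads in BL/10 and 10 and 12 in NOD.B10 and was not called.

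Genes of conventional dendritic cells were low and mixed. Zbtb46, the transcription factor of that lineage, had 1.59 and 3.29 CPM in BL/10 and 4.92 and 4.78 CPM in NOD.B10, higher in both but not called (adjusted p = 0.12, log2 fold change 1.00 with SE 0.397), except when BL/10 replicate 2 was left out (adjusted p = 0.0276). Flt3, the growth factor receptor of dendritic progenitors, overlapped between strains (log2 fold change −0.28, SE 0.371). The cross-presenting subset, marked by the chemokine receptor Xcr1, the dead-cell receptor Clec9a and the factor Batf3, gave few reads: Xcr1 30 and 18 against 18 and 2, Clec9a 6 and 26 against 0 and 3, and Batf3 0 and 4 against 0 and 0. Clec9a was 8.63-fold lower by pooled reads, with a 95% counting interval of 2.70 to 44.0, and Xcr1 was not called (adjusted p = 0.628). Cd209a, a lectin of monocyte-related dendritic cells, had 18 and 20 reads in BL/10 and 2 and 30 in NOD.B10, so that the NOD.B10 libraries lay on either side of BL/10. Of 15 other genes of conventional dendritic cells 13 were tested (median log2 fold change −1.22) and Itgae, Dnase1l3, Ckb and Id2 fell. Ckb and Cadm1 passed the filter only through BL/10, so the median and the number called rest partly on that filter. Of all genes tested, 8.63% were called lower. Itgae and Id2 are also T cell genes, and Id2 lost its call when BL/10 replicate 2 was left out.

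Xcr1 and Ccr2 lie within the same chemokine receptor cluster on chromosome 9 (123852315 to 124109140), with Ccr2 called lower and Xcr1 not called. Ccr2 reads per Xcr1 read were 2.50 and 7.17 in BL/10 and 0.389 and 1.00 in NOD.B10, on few reads in NOD.B10.

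**Figure D3:**
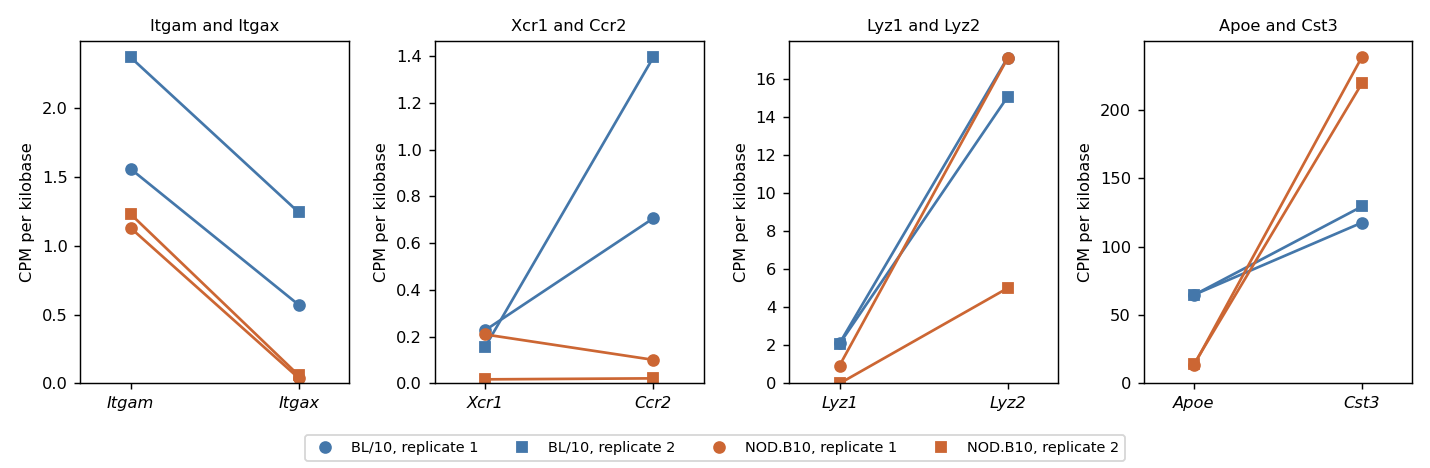
Levels in CPM per kilobase of gene length for 4 pairs of members, with a line for each library (BL/10 blue, NOD.B10 orange, circles replicate 1, squares replicate 2). Itgax and Ccr2 are near 0 in NOD.B10 while Itgam remains, the lysozyme genes separate the NOD.B10 libraries, and Apoe and Cst3 move in opposite directions.

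The 3 mast cell members had no read in NOD.B10. Kit (chromosome 5, 75574987 to 75656722), the stem cell factor receptor that mast cells need for survival, had 51 and 43 reads in BL/10, or 1.72 and 1.67 CPM. Mcpt4 (chromosome 14, 56059744 to 56062310), a chymase of connective tissue mast cells, had 35 and 34 reads, and Cpa3 (chromosome 3, 20215616 to 20242209), the carboxypeptidase of their granules, had 16 and 32. At the BL/10 level NOD.B10 would have given 76.0, 56.0 and 39.9 reads, and all 6 counts were 0, which allows up to 0.0669 CPM over the group.

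The falls were at least 25.3-fold for Kit (adjusted p = 7.98e-04), 18.7-fold for Mcpt4 (adjusted p = 0.00206) and 13.3-fold for Cpa3 (adjusted p = 0.00755). With 1 library left out the bounds were 10.9 to 25.7 for Kit, 8.04 to 19.7 for Mcpt4 and 5.73 to 18.5 for Cpa3, each lowest when NOD.B10 replicate 2 was left out. Cpa3 lost its call when BL/10 replicate 2 was left out (adjusted p = 0.0741). Both BL/10 libraries carried the signal, and Kit and Mcpt4 were nearly equal in them.

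Most other mast cell and basophil genes gave few reads. Of 18 listed, 5 had 0 reads everywhere and 8 had reads in BL/10 and none in NOD.B10, among them the tryptase Tpsb2 (4 and 20 reads), the chymase Cma1 (2 and 12), Fcer1a (0 and 6) and Ms4a2 (4 and 4), chains of the IgE receptor. Of the 4 tested, Il1rl1, the IL-33 receptor, fell (adjusted p = 0.00485) and lost its call when BL/10 replicate 1 was left out. Slc18a2, a monoamine transporter, rose from 9.84 ± 0.830 to 18.8 ± 4.99 CPM (adjusted p = 0.0117), a call lost when NOD.B10 replicate 1 was left out. Hdc and Hpgds were not called. Il1rl1 and Hdc passed the filter only through BL/10, so these calls support nothing about the list. Shares over all genes tested were 8.63% lower and 6.55% higher. The list as a whole summed to 23.8 and 24.1 CPM in BL/10 and 31.8 and 23.6 CPM in NOD.B10, most of it from Slc18a2 and Hpgds.

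**Figure D4:**
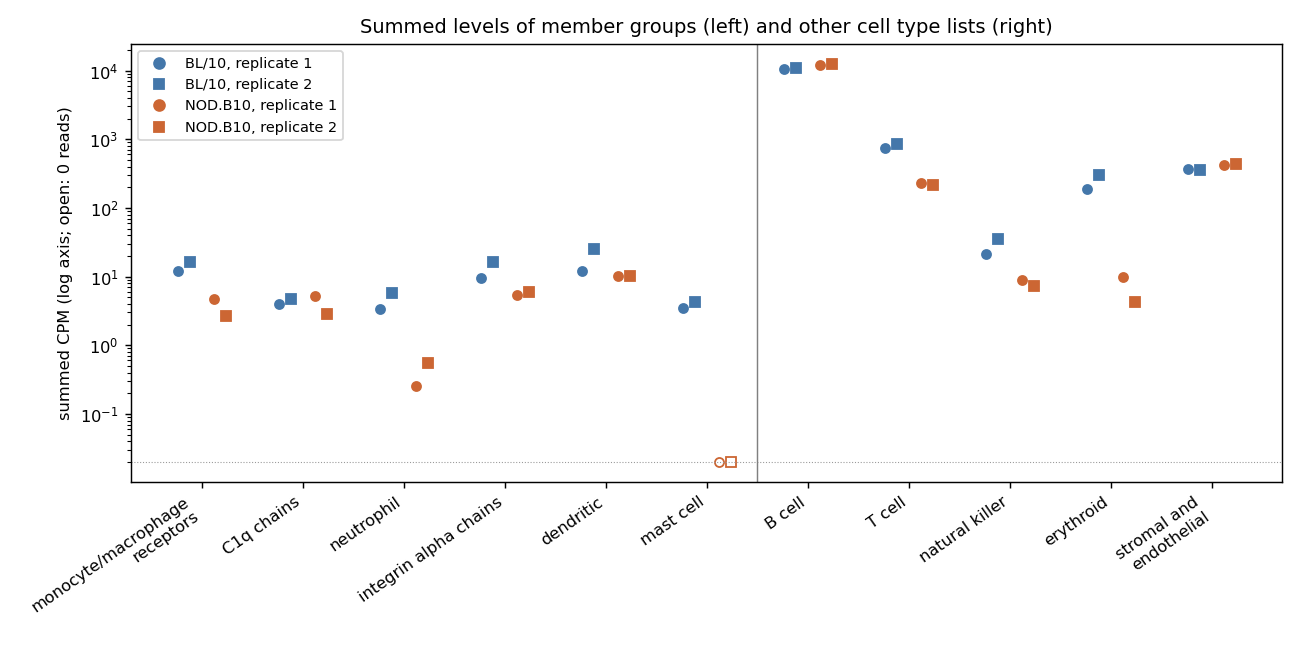
Summed CPM on a log axis of 6 member groups (left of the line) and of 5 lists of other cell types (right), 1 symbol per library (BL/10 blue, NOD.B10 orange, circles replicate 1, squares replicate 2). Mast cell members are at 0 reads in NOD.B10, C1q chains overlap between strains, and T cell, natural killer and erythroid markers are lower.

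Macrophage genes outside the members were mostly not called. Of 24 listed, 21 had a row and 15 were tested (median log2 fold change −0.92): Fcer1g and F13a1 fell, Spic rose and 12 were not called. F13a1, Siglec1, Timd4, Mrc1, Fn1 and Clec4n passed the filter only through BL/10, so the median rests partly on that filter. Over all genes tested, 8.63% were called lower and 6.55% higher. Fcer1g, the signalling chain of Fc receptors in mast cells and macrophages, went from 68 and 64 reads to 11 and 10 (adjusted p = 0.0119), a call lost when either BL/10 replicate was left out, and F13a1 lost its call when any replicate but NOD.B10 replicate 1 was left out. Spic, a transcription factor of red pulp macrophages and B cells, rose from 1.72 and 2.25 CPM to 6.69 and 8.73 CPM (adjusted p = 0.00122, log2 fold change 1.96 with SE 0.332). Timd4, a receptor for dying cells, had 71 and 99 reads in BL/10 and 31 and 2 in NOD.B10, and Siglec1, of sinus macrophages, 22 and 59 against 34 and 4. Neither was called, and both were called lower when NOD.B10 replicate 1 was left out.

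Of 21 ligands and partners of the member receptors, 12 were tested (median log2 fold change −0.39) and Itgb1, Itga4, Fcer1g and Ccr4 fell. The share called lower over all genes tested was 8.63%. Ccr4 and Pros1 passed the filter only through BL/10. Itga4 and Itgb1 form the receptor of Vcam1 on lymphocytes and fell by 0.45 and 0.60 on the log2 scale, Itga4 losing its call when NOD.B10 replicate 2 was left out. Csf1 and Flt3l, the ligands of Csf1r and Flt3, had log2 fold changes of −0.07 and −0.17 and were not called, and Ccl2, the ligand of Ccr2, had 0 and 4 reads in BL/10 and 0 in NOD.B10.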

How the data were processed

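The authors deposited 1 table of raw read counts per gene symbol, with gene lengths, for 2 BL/10 and 2 NOD.B10 libraries. Per the submitters' processing notes, the tools were HISAT2 2.1.0, SAMtools 1.3, Subread 1.6.5 and featureCounts on build mm10. The annotation, strand setting and handling of reads with several alignments are not given in the sources used here, so genes that overlap or have copies carry an uncertain count, and whether NOD reads align as well as BL/10 reads to this C57BL/6J genome was not tested.

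All genes were fitted at once in edgeR 4.0.16 (quasi-likelihood test) under R 4.3.3 (TMM factors, robust dispersion, two-sided), after filterByExpr with a minimum count of 10 and total of 15. P-values were adjusted by Benjamini-Hochberg over the 13075 genes tested, and genes under 0.05 are called. The SE is the unshrunk log2 fold change over the square root of F. Where a group had 0 reads, the fold is a bound against 3 reads over the group. Counting intervals are exact binomial, at 95%. The procedure was tested on simulated counts. Alternatives were RLE factors, no filter, DESeq2 1.42.0, a replicate block and leaving out each library. All members are named, with up to 3 called genes per companion list by adjusted p and the 3 table genes on each side of Apoe; other genes were picked after their values were seen. Members and lists were chosen with earlier results of these data known. Exon overlaps come from GENCODE vM21, and all 35 symbols matched RefSeq of GRCm38.p6. The libraries of each strain differed by more than counting noise (chi-square per gene 40.4 in BL/10 and 17.8 in NOD.B10).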

Additional observations from a re-analysis of the deposited data

How the results depend on the processing

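No tested member that was called reversed its direction in any alternative. The number of members called higher was 1 to 3 with 1 library left out, against 2 with all libraries: it was 1 when NOD.B10 replicate 1 was left out, where Cebpb lost its call, and 3 when BL/10 replicate 2 was left out, where Zbtb46 gained one. The number called lower was 13 with RLE factors, DESeq2 and the replicate block, 18 with no filter, and 9 to 16 with 1 library left out. The same-numbered libraries did not deviate together (correlation of deviations −0.0165), and the labels tie no number to a shared batch, so the replicate block pairs by number only. With it 1802 genes were called over all, against 1986, and all 30 tested members kept their call or its absence, as they also did with RLE factors and DESeq2. Depth limits the low genes, since 3 reads over NOD.B10 are 0.0669 CPM.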
